A study of Mus musculus with 6 samples.

Results

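Of 10766 genes that could be named by position in the deposited tables, 7 were followed: the transcription factor genes Ikzf2 and Ikzf4, the costimulatory receptor gene Tnfrsf4 and the actin-capping gene Capg, known from regulatory T cells, and Havcr2, Entpd1 and Tnfrsf9, known from checkpoint and activation programmes of T cells. They were chosen by symbol, with earlier results of these data known. Each was read from the most-counted row that covers at least 50 bp of its exons and exons of no other gene. All 7 passed the filter on low counts. The RNA came from tumour tissue grown from LG1233-OVA cells, which are murine lung cancer cells and, by their name, carry the model antigen ovalbumin, under the skin of female C57BL/6 mice after injection of 1000000 cells, and collected on day 27. One group of 3 tumours came from stable CRISPR/Cas9 lines with the non-targeting guide (sgNT, labelled WT and Control), the other group of 3 from lines with a guide against Uhrf1 (sgUhrf1, labelled Uhrf1 Knockout and Knockout). The tumours are labelled as biological replicates, 1 library each. The labels give neither the age of the mice nor whether a line was 1 clone, and the knockout is described for the injected cells, not for the mice. The comparison asks how RNA of the whole tumour, cancer and host cells together, differed between the groups for these genes.

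Regulatory T cells restrain other T cells and are defined by the transcription factor Foxp3. Helios and Eos, the zinc finger proteins encoded by Ikzf2 and Ikzf4, belong to the Ikaros family and work with Foxp3, and OX40, the product of Tnfrsf4, is a TNF receptor family member carried by regulatory and activated T cells. Checkpoint and activation receptors appear on T cells under lasting stimulation: Havcr2 encodes the inhibitory receptor TIM-3, Entpd1 the ectonucleotidase CD39, which begins the conversion of extracellular ATP towards adenosine, and Tnfrsf9 the costimulatory receptor 4-1BB. None of these genes is restricted to T cells. Macrophages and dendritic cells also express Havcr2, Entpd1 and Capg, and endothelium also expresses Entpd1.

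The libraries held 5462555 to 6375069 counts each, and a floor of 3 counts, the most that a count of 0 allows for counting error alone, equals 0.445 to 0.660 CPM (counts per 1000000 after TMM scaling, edgeR's correction for library composition). The targeted gene, Uhrf1, stood at 133, 136 and 98.2 CPM in the sgNT and 121, 73.0 and 89.9 CPM in the sgUhrf1 tumours (log2 fold change -0.37 ± 0.23 SE, edgeR adjusted p = 0.227). Its level does not check the labels, since the labels do not give the guide's site, an edited gene can still be transcribed, and cells of the mouse contribute RNA. Some tumours stood apart in markers of other tissues. The 8 skeletal muscle markers with a row summed to 589 CPM in sgNT replicate 2 and 467 CPM in sgUhrf1 replicate 1, and to between 7.09 and 34.8 CPM elsewhere. The 2 B cell markers with a row summed to 71.1 CPM in sgNT replicate 3 and to between 0.445 and 11.3 CPM elsewhere.

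In all, 3 of the 7 genes were higher in sgUhrf1 tumours, Ikzf2, Ikzf4 and Tnfrsf4, and 0 of the other 4 passed the threshold, an edgeR adjusted p of 0.05 over all rows. Across the series 39.9% of the 10503 tested rows passed, 20.2% as higher and 19.7% as lower, as did 42.1% of the 4579 tested genes named by position, so 3 calls among 7 members lie near the background for both directions together. The 3 called genes were also those whose groups did not overlap, which held for 54.4% of all tested rows, 26.6% with sgUhrf1 above. The calls fell on 3 of the 4 regulatory genes and on 0 of Havcr2, Entpd1 and Tnfrsf9. Without sgNT replicate 2 and sgUhrf1 replicate 1, the tumours with most muscle RNA, 3 members were still past the threshold, and the same number without sgNT replicate 3. In bulk RNA, fewer cells of a type and less RNA per cell cannot be told apart.

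**Figure D1:**
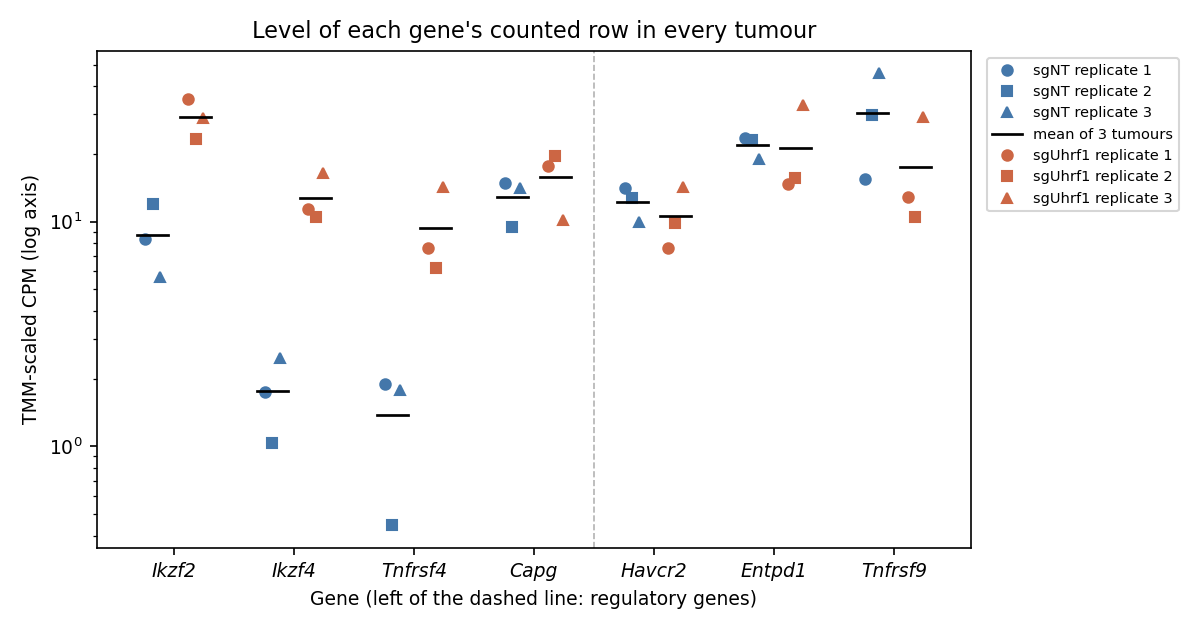
TMM-scaled CPM of the counted row of each gene on a log axis, with 1 point per tumour (3 sgNT in blue, 3 sgUhrf1 in orange) and black bars for group means. The points of both groups are apart for Ikzf2, Ikzf4 and Tnfrsf4 and overlap for Capg, Havcr2, Entpd1 and Tnfrsf9.

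What was counted for each gene depended on where its row fell. Ikzf4 (chr10:128630843-128645991 of GRCm38, minus strand) was counted over 1150 bp of its exons, of which 661 bp are coding, together with 1697 bp of its introns. Tnfrsf4 (chr4:156013843-156016612, plus strand) was counted over 109 bp of coding exon 2 of 7 and 183 bp of intron. Tnfrsf9 (chr4:150914562-150946102, plus strand) was counted over 80 bp of coding exon 6 of 8, 256 bp of its introns and 257 bp inside Park7, 953 bp from the nearest Park7 exon. Of the bases of this row, 336 bp lie inside Camta1, 4384 bp from its nearest exon. Havcr2 (chr11:46454935-46481255, plus strand) was counted over 157 bp of its last coding exon, 616 bp of untranslated exon and 1247 bp of intron. The coding exons below are the coding parts of these rows (for Ikzf4, 1 of 3), printed to show which bases could be counted. They are shown 5′ to 3′ on the strand of the gene from the GENCODE M21 transcripts, with counted bases in capitals and uncounted bases in lower case. Exon numbers follow the transcript with the longest coding part in the GENCODE basic set.
Ikzf4 exon 7, chr10:128635790-128635921: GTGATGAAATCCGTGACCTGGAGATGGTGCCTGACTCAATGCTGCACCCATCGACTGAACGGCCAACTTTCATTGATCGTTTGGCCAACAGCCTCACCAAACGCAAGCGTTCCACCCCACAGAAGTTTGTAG
Tnfrsf4 exon 2, chr4:156014228-156014350: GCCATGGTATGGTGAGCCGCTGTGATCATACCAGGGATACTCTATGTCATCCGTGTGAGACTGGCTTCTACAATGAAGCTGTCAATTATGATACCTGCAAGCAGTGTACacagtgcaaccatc
Havcr2 exon 7, coding part, chr11:46479287-46479443: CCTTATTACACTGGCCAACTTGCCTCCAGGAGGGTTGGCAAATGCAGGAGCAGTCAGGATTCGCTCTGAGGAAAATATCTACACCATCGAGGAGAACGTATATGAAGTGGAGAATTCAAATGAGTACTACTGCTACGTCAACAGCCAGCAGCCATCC
Tnfrsf9 exon 6, chr4:150934287-150934411: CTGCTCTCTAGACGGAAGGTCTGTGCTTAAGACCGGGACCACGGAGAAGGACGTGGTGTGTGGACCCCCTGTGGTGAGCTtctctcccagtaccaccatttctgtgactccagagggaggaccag
The stretches of Tnfrsf4 and Tnfrsf9 are short, and a read pair could be counted when it touched them. Reads from these capitals cannot be separated from reads in the other intervals of the same row.

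The other 3 rows held little or no coding exon. Ikzf2 (chr1:69531214-69687245, minus strand) was counted over 1734 bp of untranslated exon at its 3′ end and 1698 bp beyond the end of the gene, inside Gm29114 between its exons, with 0 bp of coding exon. Capg (chr6:72544391-72562983, plus strand) was counted over 292 bp of untranslated exon, 1754 bp of its introns, 427 bp inside Elmod3 outside its exons and 1087 bp outside genes. Entpd1 (chr19:40612366-40741602, plus strand) was counted over 261 bp of coding exon, the whole of exon 7 of 10 and 4.68% of its row, while 4755 bp were intron and 564 bp lay inside Tctn3 between its exons. Only Entpd1 kept its own label in the files (1 of 7). The row labelled Ikzf4 in the files covers Smarcc2 exons and held 3495 counts over the 6 tumours, and the row labelled Tnfrsf4 covers no exon and held 2.

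**Figure D2:**
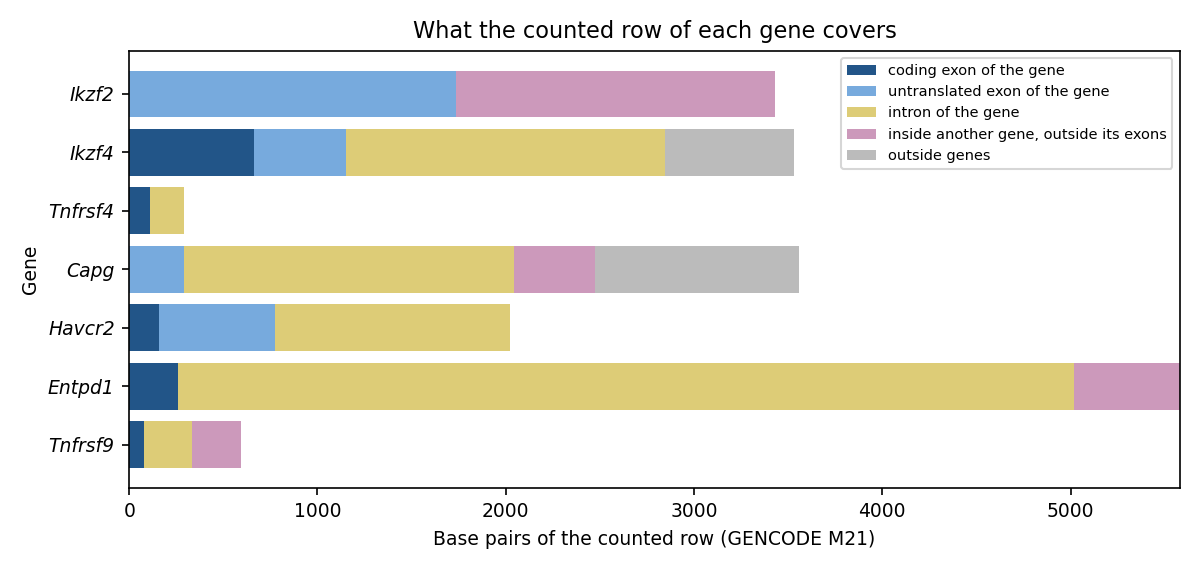
Base pairs of the row counted for each gene, split into coding exon, untranslated exon and intron of that gene, stretches inside another gene outside its exons, and stretches outside genes. Exons of the gene make up 50.5% of the Ikzf2 row and 4.68% of the Entpd1 row.

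Ikzf4 (Eos) had the largest fitted fold change of the 7, close to that of Tnfrsf4. It was counted at 1.74, 1.04 and 2.48 CPM in the sgNT tumours and at 11.3, 10.5 and 16.5 CPM in the sgUhrf1 tumours. Each sgUhrf1 tumour was above each sgNT tumour. The mean went from 1.75 ± 0.722 to 12.8 ± 3.25 CPM (SD, n = 3 per group), a 7.26-fold difference with a log2 fold change of 2.86 ± 0.44 (SE) and an edgeR adjusted p of 0.00134. The counts behind it were 11, 7 and 14 against 64, 66 and 75. A second row, looked at with its values known, spans 266 bp of coding exon of Ikzf4, overlaps the first row in part, and moved the same way, with 0, 1 and 0 counts in sgNT and 12, 4 and 21 in sgUhrf1 tumours. The ratio of its counts was 42.0 (exact binomial 95% interval 7.08 to 1701, counting error only), and it was too low to enter the filtered fit. With single tumours left out the ratio ran from 25.05 to 60.5, and without sgNT replicate 2 the counts were 0 against 37.

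Ikzf2 (Helios) was higher as well, by a smaller factor. Its row held 8.39, 12.01 and 5.67 CPM in the sgNT tumours and 35.1, 23.3 and 29.0 CPM in the sgUhrf1 tumours. The groups did not overlap, and the lowest sgUhrf1 tumour was replicate 2. The mean went from 8.69 ± 3.18 to 29.1 ± 5.86 CPM (SD, n = 3 per group), a 3.33-fold difference (log2 1.74 ± 0.33 SE, edgeR adjusted p = 0.00371). The second row of Ikzf2 was low and gave no clear direction. It covers 435 bp of Ikzf2 coding exon among 8561 bp of intron and 2617 bp outside genes. It held 5, 22 and 4 counts in the sgNT and 10, 6 and 5 in the sgUhrf1 tumours, a ratio of 0.768 (exact binomial 95% interval 0.419 to 1.38, counting error only). Without sgNT replicate 2, which held 22 of the 31 sgNT counts, the ratio was 1.69 (0.743 to 4.19). A 3.33-fold rise lies outside the interval over all tumours and inside that without sgNT replicate 2. The rise of Ikzf2 thus rests on its main row, counted without strand. That row holds 1734 bp of exon at the 3′ end of the gene and 1698 bp beyond it. Where in the row its reads lie is unknown.

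Tnfrsf4 (OX40) was low in sgNT tumours, at 1.90, 0.445 and 1.77 CPM, and stood at 7.61, 6.19 and 14.3 CPM in sgUhrf1 tumours. The 3 counts of sgNT replicate 2 are at the floor, and the highest sgNT tumour was below the lowest sgUhrf1 tumour. The mean went from 1.37 ± 0.806 to 9.37 ± 4.33 CPM (SD, n = 3 per group), 6.77-fold (log2 2.76 ± 0.59 SE, edgeR adjusted p = 0.00609). The gene has a neighbour of the same family, Tnfrsf18, which encodes the receptor GITR of regulatory T cells. The row over 422 bp of Tnfrsf18 exon is shared with 1304 bp of other exons, mostly of Ttll10, and went from 17.9, 8.30 and 10.8 CPM to 48.3, 55.2 and 62.7 CPM (log2 2.17 ± 0.30 SE, adjusted p = 0.000940). The share of Tnfrsf18 in that row is unknown.

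Capg, which encodes an actin filament capping protein of the gelsolin family, did not pass the test. Its row held 14.9, 9.49 and 14.2 CPM in the sgNT tumours and 17.7, 19.5 and 10.1 CPM in the sgUhrf1 tumours. sgUhrf1 replicate 3 lay inside the sgNT range and the other 2 sgUhrf1 tumours lay above it. The log2 fold change was 0.30 ± 0.33 (SE, edgeR adjusted p = 0.502), with a 95% interval from -0.45 to 1.06. A rise as large as that of Ikzf2 (1.74) lies outside this interval. The interval is that of the whole row, of which 8.20% is Capg exon.

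Havcr2 (TIM-3) did not pass either. It was counted at 14.1, 12.7 and 9.92 CPM in the sgNT tumours and at 7.61, 9.84 and 14.3 CPM in the sgUhrf1 tumours. The sgUhrf1 tumours spanned and exceeded the sgNT range on both sides. The log2 fold change was -0.22 ± 0.33 (SE, edgeR adjusted p = 0.632, 95% interval -0.96 to 0.53). It was the only gene of the TIM family with a row, 1 of 4.

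Entpd1 (CD39) had nearly equal means, 21.9 ± 2.55 CPM in the sgNT and 21.2 ± 10.4 CPM in sgUhrf1 tumours (SD, n = 3 per group). The sgNT tumours held 23.6, 23.1 and 19.0 CPM and the sgUhrf1 tumours 14.7, 15.7 and 33.2 CPM. In the sgUhrf1 group replicates 1 and 2 were below each sgNT tumour and replicate 3 was above each of them. The log2 fold change was -0.05 ± 0.34 (SE, edgeR adjusted p = 0.916, 95% interval -0.82 to 0.72), and its sign turned without sgUhrf1 replicate 1 (0.14) or replicate 2 (0.11).

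Tnfrsf9 (4-1BB) had the widest spread in CPM among the sgNT tumours. Its row held 15.5, 29.8 and 45.7 CPM in the sgNT tumours and 12.9, 10.5 and 29.2 CPM in the sgUhrf1 tumours. Replicates 1 and 2 of sgUhrf1 were below each sgNT tumour and replicate 3 was inside the sgNT range. The log2 fold change was -0.80 ± 0.47 (SE, edgeR adjusted p = 0.208, 95% interval -1.86 to 0.27). It passed the threshold without sgUhrf1 replicate 3 (-1.38, adjusted p = 0.0460) and with no filter on low counts (-0.88, adjusted p = 0.0275), and was smaller without sgNT replicate 3 (-0.39, adjusted p = 0.595). Its row holds more bases inside Park7, and more inside Camta1, than Tnfrsf9 exon. Camta1 in its own row held 0, 4 and 1 counts in the sgNT and 0 in each sgUhrf1 tumour, and Park7 had no row of its own. The part of Park7 or Camta1 in the counts was not tested.

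**Figure D3:**
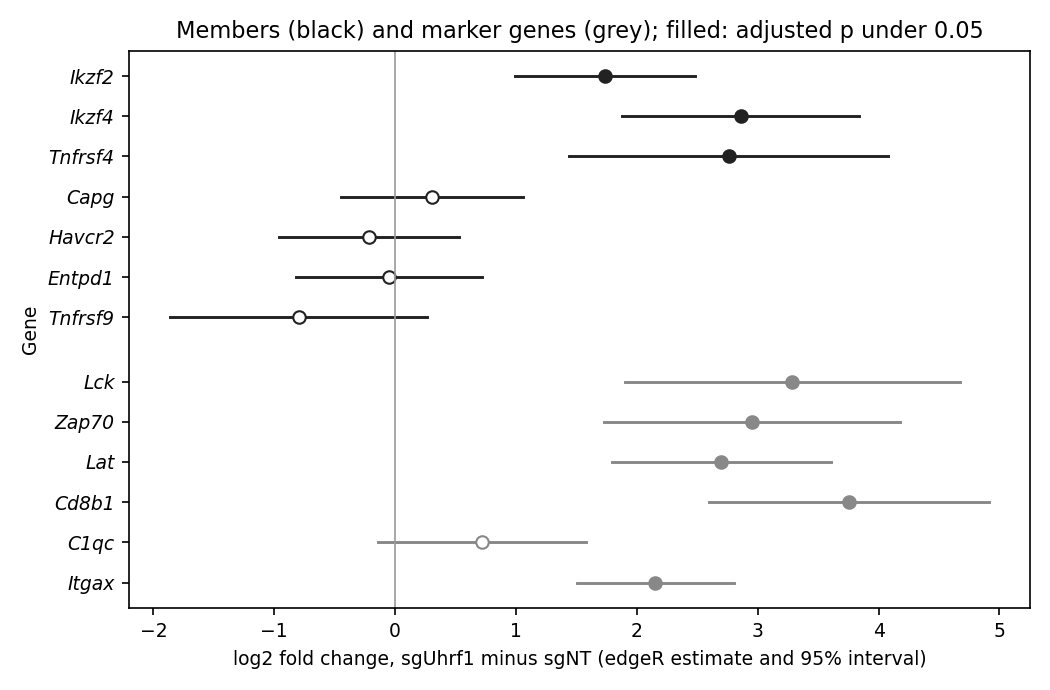
edgeR log2 fold change, sgUhrf1 minus sgNT, with 95% intervals, for the 7 genes (black) and for T cell, macrophage and dendritic cell genes (grey); filled points have an adjusted p under 0.05. The intervals of Ikzf2, Ikzf4 and Tnfrsf4 lie wholly above 0, and those of Capg, Havcr2, Entpd1 and Tnfrsf9 include 0.

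The regulatory genes and the other 3 members were also set against each other. Relative to the sgNT mean of each gene, the mean of the 4 regulatory genes lay 1.85, 1.64 and 1.94 log2 units higher in the sgUhrf1 tumours. The mean of Havcr2, Entpd1 and Tnfrsf9 lay at -0.76, -0.71 and 0.30. In sgUhrf1 replicate 3 both means were above the sgNT mean, and in replicates 1 and 2 they lay on opposite sides of it. Over the fitted values the mean log2 fold change was 1.91 for the regulatory genes and -0.36 for the others, a difference of 2.27. With at least 200 bp of exon asked of a row, which removes Tnfrsf4 and Tnfrsf9, the difference was 1.77. The ratios of Ikzf2, Ikzf4 or Tnfrsf4 to each of Havcr2, Entpd1 and Tnfrsf9 did not overlap between groups, while those of Capg did. The ratios use the same values as the single-gene calls and add no separate evidence. Taken singly, 54.4% of all tested rows had groups that did not overlap, and no such share was computed for ratios. These are descriptions: the members were chosen with results known, and the difference between both sets of genes was not tested.

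**Figure D4:**
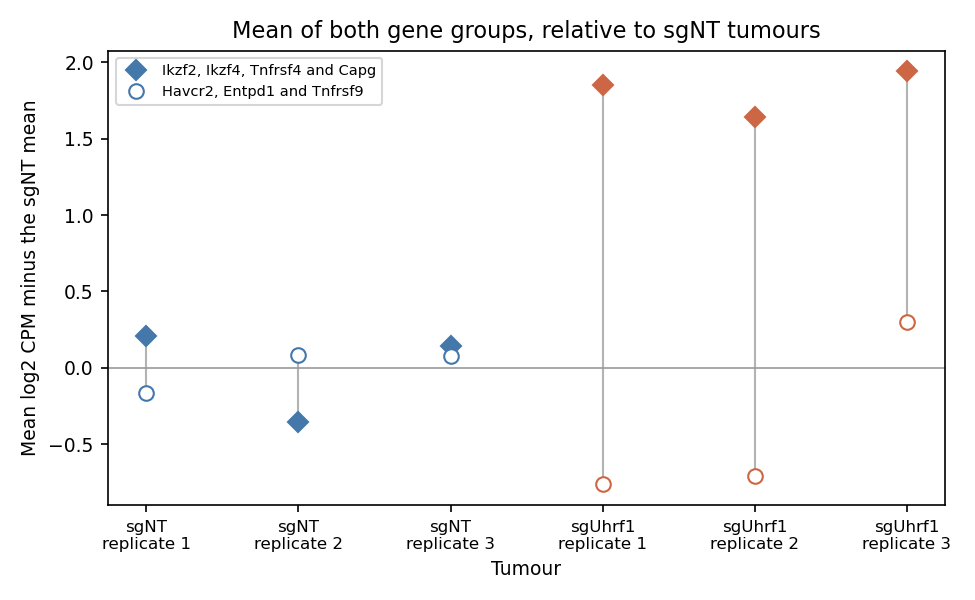
Mean log2 CPM (prior count 2) of Ikzf2, Ikzf4, Tnfrsf4 and Capg (diamonds) and of Havcr2, Entpd1 and Tnfrsf9 (circles) in each tumour, relative to the sgNT mean of each gene. The diamonds reach 1.64 to 1.94 in sgUhrf1 tumours, and the circles lie between -0.76 and 0.30.

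Levels of different genes can be set side by side only per length. In CPM per kilobase of row, the sgNT means ran from Tnfrsf9 (51.2) over Havcr2 (6.07), Tnfrsf4 (4.70), Entpd1 (3.92), Capg (3.61) and Ikzf2 (2.53) to Ikzf4 (0.496). Tnfrsf9 and Ikzf4 stood apart from their neighbours in this order, and the ranges of all other neighbouring genes overlapped. In sgUhrf1 tumours the order was Tnfrsf4 (32.1), Tnfrsf9 (29.6), Ikzf2 (8.49), Havcr2 (5.24), Capg (4.43), Entpd1 (3.8) and Ikzf4 (3.61). Here a gap separated only Tnfrsf9 from Ikzf2. The order depends on the length used. Per kilobase of the gene's own exon in the row, the sgNT means were 379 for Tnfrsf9, 83.9 for Entpd1, 44.0 for Capg, 15.9 for Havcr2, 12.6 for Tnfrsf4, 5.01 for Ikzf2 and 1.52 for Ikzf4. In sgUhrf1 tumours they were 219 for Tnfrsf9, 85.9 for Tnfrsf4, 81.2 for Entpd1, 54.0 for Capg, 16.8 for Ikzf2, 13.7 for Havcr2 and 11.1 for Ikzf4. Ikzf4 had the lowest mean in both groups on both scales. In sgUhrf1 tumours its range overlapped that of Entpd1 per kilobase of row and that of Havcr2 per kilobase of exon. The places of Entpd1, Capg, Havcr2 and Tnfrsf4 changed with the scale in both groups, and those of Ikzf2 and Tnfrsf9 in sgUhrf1 tumours.

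T cell genes were higher in the sgUhrf1 tumours, as were Ikzf2, Ikzf4 and Tnfrsf4. Lck, the kinase next to the T cell receptor, held 4.75, 1.78 and 11.3 CPM in the sgNT group and 48.2, 31.9 and 93.0 CPM in the sgUhrf1 group. All 4 tested T cell markers were higher, the 7 with a row summed to 241 to 276 CPM in the sgNT and 357 to 693 CPM in sgUhrf1 tumours, and Cd6 was at 0 in all tumours. Most of that sum is Thy1, which fibroblasts also express. Without Thy1 the T cell markers summed to 6.08 to 22.2 CPM in the sgNT and to 64.8 to 168 CPM in sgUhrf1 tumours. Of these markers 3 of 3 tested were higher, beside 20.2% of all rows. To describe the members beside T cell content, their counts were divided by the summed counts of Lck, Zap70 and Lat in the same library, which were 65, 41 and 116 in sgNT and 493, 385 and 710 in sgUhrf1 tumours. Ikzf4 gave 0.169, 0.171 and 0.121 counts per T cell count in sgNT and 0.130, 0.171 and 0.106 in sgUhrf1 tumours, so the groups overlapped. Tnfrsf4 overlapped too, at 0.185, 0.0732 and 0.0862 against 0.0872, 0.101 and 0.0915. Ikzf2 lay at 0.815, 1.98 and 0.276 in sgNT and at 0.402, 0.382 and 0.186 in sgUhrf1 tumours, again with overlap.

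The other 4 members had lower ratios in each sgUhrf1 tumour than in each sgNT tumour. Havcr2 went from a mean of 1.32 ± 0.809 to 0.113 ± 0.0414 counts per T cell count (SD, n = 3 per group), Entpd1 from 2.34 ± 1.44 to 0.213 ± 0.0444, Tnfrsf9 from 2.88 ± 1.79 to 0.169 ± 0.0197, and Capg from 1.23 ± 0.473 to 0.196 ± 0.127. All 7 ratios share their denominator, so they are not independent, and a gene whose own level did not change must fall in this measure when T cell counts rise. None of the ratios was tested.

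**Figure D5:**
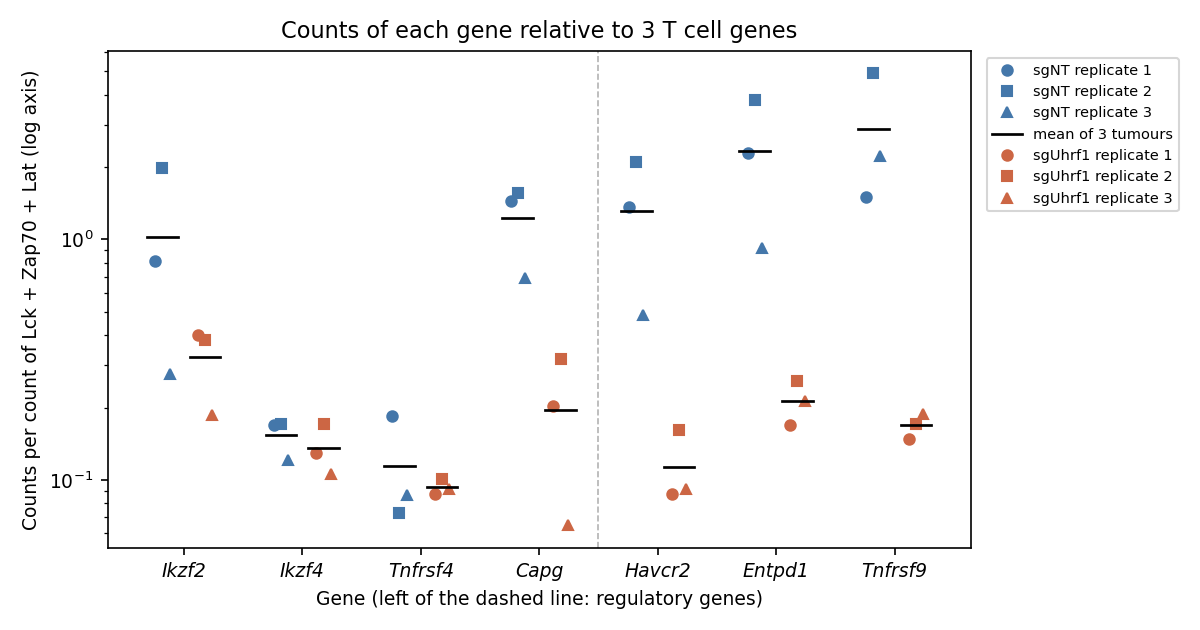
Counts of each gene divided by the summed counts of Lck, Zap70 and Lat in the same tumour, on a log axis, with 1 point per tumour and black bars for means. Ikzf4 lies between 0.106 and 0.171 in all 6 tumours, whereas Tnfrsf9 lies at 1.51 or more in sgNT and at 0.187 or less in sgUhrf1 tumours.

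Markers of other cells that carry these genes moved in different directions. Of 7 tested macrophage markers 0 were higher and 1 was lower, and the 8 with a row summed to between 542 and 823 CPM in the sgNT and to 771, 289 and 992 CPM in sgUhrf1 tumours. Their sum was highest in sgUhrf1 replicate 3, where Havcr2 and Entpd1 were also highest, as was Lck at 93.0 CPM. In sgUhrf1 replicate 1 the sum was 771 CPM, and Havcr2 (7.61 CPM) and Entpd1 (14.7 CPM) were lower than in any other tumour. Most of that sum was C1qc and Lyz2, at 386 and 320 CPM in this tumour. Dendritic cell markers summed to 20.0 to 26.1 CPM in the sgNT and to 86.7 to 143 CPM in sgUhrf1 tumours, with 2 of 3 tested higher and 1 lower. Endothelial markers summed to 76.2 to 147 and 88.9 to 151 CPM, and 0 of 6 passed. CD8 and cytotoxicity markers summed to 4.45 to 15.7 and 52.4 to 121 CPM, with 3 of 3 higher, and epithelial markers to 162 to 530 and 2059 to 3581 CPM, with 5 of 6 higher. Of B cell markers 0 of 1 passed, and of NK cell markers 1 of 1, which is Il2rb. Of fibroblast markers 1 of 10, Thy1, was higher and 3 were lower, and of neutrophil markers 2 of 3 were higher. Over all tested rows 20.2% were higher and 19.7% lower. The part of the named cell types in the levels of the 7 genes was not tested.

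The wider list of 28 regulatory T cell genes held 9 tested genes, of which 5 were higher and 0 lower, with a median log2 fold change of 1.68 beside 0.019 over all rows. These include the 4 members, and without them 2 of 5 were higher, with a median of 1.36, beside 20.2% of all rows. Besides Ikzf4, Tnfrsf4 and Ikzf2, the higher genes were Il2rb, the beta chain of the interleukin-2 receptor, from 5.11 ± 2.42 to 33.5 ± 14.8 CPM (SD, n = 3 per group; log2 2.71 ± 0.46 SE, edgeR adjusted p = 0.00225), and Socs2, a feedback inhibitor of cytokine signalling (log2 0.65 ± 0.23, adjusted p = 0.0491). Il2rb is also carried by NK and CD8 T cells. The call of Socs2 was lost without any 1 of the 6 tumours. Capg did not pass, nor did Lrrc32 at 0.71 ± 0.32, Itgae at 1.68 ± 0.60 or Areg at 1.36 ± 0.78. Foxp3 itself had no row of its own. The row over 1270 bp of its exons is shared with 462 bp of exons of Ccdc22 and others. It held 41.0, 33.5 and 39.0 CPM in the sgNT and 43.7, 39.7 and 66.6 CPM in sgUhrf1 tumours. This row did not pass (log2 0.40 ± 0.24 SE, edgeR adjusted p = 0.217). Another shared row, over 324 bp of Foxp3 exon and 2093 bp of other exons, did not pass either (log2 0.19 ± 0.21 SE, edgeR adjusted p = 0.507). A further shared row, over 537 bp of Foxp3 exon, held 0 counts in each tumour. The rows used here cover no exon of Ctla4, Il2ra, Pdcd1 or Tigit, which were not analysed here. The regulatory label of these genes was therefore not checked against its defining gene.

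Of the 18 checkpoint genes 6 were tested, 2 were higher and 0 lower, with a median of 0.29, a share near the 39.9% of all rows that passed. Without Havcr2, Entpd1 and Tnfrsf9, 2 of 3 were higher, beside 20.2% of all rows. Cd38, a surface enzyme that consumes NAD, rose from 22.8 ± 4.34 to 113 ± 12.3 CPM (SD, n = 3 per group; log2 2.31 ± 0.21 SE, edgeR adjusted p = 0.000158). Layn, which encodes the hyaluronan receptor layilin, rose by 1.07 ± 0.37 on the log2 scale (adjusted p = 0.0427), although its groups overlapped, a call lost without sgNT replicate 2 or 3 or sgUhrf1 replicate 1 or 3. Cd101 did not pass at 0.62 ± 0.44. Of shared rows, that over Tox and Gm11802 went from 3.33, 0.741 and 4.61 CPM to 13.3, 20.0 and 29.5 CPM (log2 2.86 ± 0.57 SE, adjusted p = 0.00452). The row over Lag3 and Ptms held 1440, 1569 and 1577 against 2637, 2668 and 3868 CPM (log2 1.00 ± 0.22, adjusted p = 0.00707), and how much of it belongs to Lag3 is unknown.

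Partners of the members were measured in part. Among 4 tested ligand and partner genes 2 were higher and 1 lower (median 1.00), beside 20.2% and 19.7% of all rows. Ceacam1, an adhesion molecule that binds TIM-3 and is abundant in epithelia, rose from 6.76 ± 0.958 to 525 ± 322 CPM (SD, n = 3 per group; log2 6.27 ± 0.53 SE, edgeR adjusted p = 0.000136). Tnfrsf14, the receptor HVEM that binds BTLA, rose by 1.77 ± 0.35 on the log2 scale, and Pvr, a ligand of TIGIT, fell by 2.00 ± 0.43 (adjusted p = 0.00466 and 0.00607). Cd86 did not pass at 0.23 ± 0.40. Tnfsf4, Tnfsf9 and Lgals9, which encode ligands of OX40, 4-1BB and TIM-3, had no row of their own.

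Family members of the 7 genes were read from their own rows. In the Ikaros family Ikzf2 and Ikzf4 were higher and Ikzf1, the pan-lymphoid member, was not past the threshold at 0.46 ± 0.61 (3 tested of 5). Of 6 tested TNF receptor genes 2 were higher, Tnfrsf4 and Tnfrsf14, and 1 lower, Tnfrsf1a, the broadly expressed TNF receptor, which fell by 0.86 ± 0.22 on the log2 scale (edgeR adjusted p = 0.0122). That is 3 of 6 called in either direction, beside 39.9% of all rows. Among 7 genes of TNF receptor signalling 3 were higher and 2 lower, beside 20.2% and 19.7% of all rows. The NF-kB subunit gene Relb rose by 1.12 ± 0.20 and the ubiquitin ligase genes Birc3 and Birc2 by 1.04 ± 0.19 and 0.95 ± 0.18, whereas Traf3, an inhibitor of the alternative NF-kB pathway, fell by 1.44 ± 0.34 (adjusted p between 0.00272 and 0.00940). Nfkb1, another NF-kB subunit gene, fell by 0.79 ± 0.21 on the log2 scale (adjusted p = 0.0173), a call lost without sgNT replicate 2. The call of Tnfrsf1a was lost without sgNT replicate 3 (adjusted p = 0.0521). Birc2 and Birc3 are close copies on chromosome 9, and reads may be split between them.

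In the gelsolin family of Capg 3 of 7 tested genes were higher, beside 20.2% of all rows. Vil1, the villin of brush borders, rose by 4.22 ± 0.62 on the log2 scale, Avil by 3.41 ± 0.30 and Scin by 2.13 ± 0.60 (SE, n = 3 per group). The edgeR adjusted p lay between 0.000145 and 0.0213. The call of Scin was lost without sgNT replicate 2 or 3 or sgUhrf1 replicate 1 or 2. Among 6 tested genes of extracellular ATP and adenosine turnover only Nt5e passed, beside 39.9% of all rows. Nt5e encodes CD73, which acts after CD39, and rose from 3.90 ± 0.366 to 11.6 ± 4.0 CPM (log2 1.56 ± 0.38, adjusted p = 0.0113). In the interleukin-2 and STAT5 list 4 of 6 were higher, beside 20.2% of all rows. The 4 were Il2rb and Socs2, both also in the regulatory T cell list, Il15ra (1.88 ± 0.48, adjusted p = 0.0135) and Il7r (1.46 ± 0.49, adjusted p = 0.0415). The call of Il7r was lost without sgNT replicate 1 or 2 or sgUhrf1 replicate 3. Of 2 tested genes of the TGF-beta list, Ltbp1, a matrix protein that stores latent TGF-beta, fell by 2.70 ± 0.29 on the log2 scale (adjusted p = 0.000317). Some calls were also lost without the tumours with most muscle RNA, sgNT replicate 2 and sgUhrf1 replicate 1. These were Birc2, Il15ra, Il7r, Layn, Nfkb1, Scin, Socs2, Tnfrsf14, Tnfrsf1a and Traf3.

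Among 4106 other genes with a row and a mean log2 CPM of at least 1, those whose log2 CPM followed each member most closely over the 6 tumours were named by Pearson r, as a description. For Ikzf4 they were H2-DMb1 (0.9996), Psmb9 (0.998) and Gbp6 (0.997), for Tnfrsf4 Strip2, Ptpn9 and Apol10b (0.997 to 0.988), and for Ikzf2 Fkbp15, Wnt6 and Ckb (0.990 to 0.985). For Capg they were Thoc7, Fam213a and Trappc10 (0.997 to 0.991), for Havcr2 Medag, Xrcc4 and Cbx8 (0.978 to 0.958), for Entpd1 Mtch2, Agfg1 and Maea (0.974 to 0.971), and for Tnfrsf9 Epas1, Hs1bp3 and Tns1 (0.988 to 0.986). With 6 points in 2 groups and so many candidates, each member had genes with a high r. The 3 genes nearest to Ikzf4 and the 3 nearest to Tnfrsf4 were each higher in sgUhrf1 tumours. For Ikzf2, Wnt6 and Ckb were higher and Fkbp15 did not pass (log2 0.43, edgeR adjusted p = 0.0982). Those nearest to Capg, Havcr2, Entpd1 and Tnfrsf9 did not pass the threshold. Being picked over the same 6 tumours, such genes tend to share the group difference of their member, so their calls are not separate evidence.

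Promoters of 5 of the 7 genes are in the RefSeq table of GRCm38.p6, and those of Ikzf2 and Ikzf4 are not shown. The 250 bases before the RefSeq start of Tnfrsf4 and before the first listed start of Tnfrsf9 are printed below. They were picked because Tnfrsf4 rose while Tnfrsf9, of the same family, did not pass the test. These starts differ from the GENCODE gene starts given above. The Tnfrsf4 window ends at 156013694, short of the GENCODE start at 156013843, and the Tnfrsf9 window lies inside the GENCODE gene. Capitals mark matches to the motif GGAAA on either strand, the core known for NFAT.
Tnfrsf4, chr4:156013445-156013694, plus strand: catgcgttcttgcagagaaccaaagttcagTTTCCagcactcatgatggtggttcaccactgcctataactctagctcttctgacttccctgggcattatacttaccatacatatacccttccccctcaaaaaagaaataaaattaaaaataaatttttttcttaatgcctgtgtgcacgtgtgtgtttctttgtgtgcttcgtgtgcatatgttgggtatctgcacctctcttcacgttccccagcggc
Tnfrsf9, chr4:150919905-150920154, plus strand: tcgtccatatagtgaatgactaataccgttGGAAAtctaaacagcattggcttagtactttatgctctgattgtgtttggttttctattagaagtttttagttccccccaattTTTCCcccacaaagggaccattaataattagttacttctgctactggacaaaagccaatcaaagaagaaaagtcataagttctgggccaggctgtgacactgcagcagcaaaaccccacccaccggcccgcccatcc
Of 32851 promoter windows of this length, 55.6% hold GGAAA, so its 1 match in Tnfrsf4 and 2 in Tnfrsf9 are ordinary. Neither printed window matches the NF-kB motif (in 1.41% of all windows), TGANTCA (AP-1, 6.75%), TTCNNNGAA (STAT, 7.02%), TGTGGT (RUNX, 14.1%) or the ISRE motif (2.98%), both strands searched. The second listed start of Tnfrsf9 (chr4:150927749-150927998), whose window overlaps an exon and is not printed, has 1 NF-kB, 1 AP-1, 3 NFAT and 1 STAT match. Havcr2 matches TGANTCA and TGTGGT 1 time each. CpG dinucleotides, the sites of DNA methylation that Uhrf1 protein is known to maintain, numbered 5 in the Tnfrsf4 window, 4 in each of both Tnfrsf9 windows, 2 in Havcr2 and 18 and 8 in the 2 windows of Entpd1, where the median over all windows was 6. No methylation was measured here, and a motif match is not a binding site.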

How the data were processed

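Bulk RNA of 6 tumours was measured, 3 per group. The deposited unit is the count: whole read pairs per row, not normalized. Per the submitters' processing notes, the tools were fastp, STAR and featureCounts and the build was GRCm38; per the file headers, featureCounts 2.0.1 used the GENCODE M26 annotation, whose coordinates are GRCm39, without strand. For fastp, STAR and the alignment filter, versions and settings: not given in the sources used here. Rows were therefore renamed by position with GENCODE M21 (GRCm38): 13432 rows covering at least 50 bp of exon of 1 gene, small RNA genes ignored, held 41.4% of counts, and the most-counted row stood for its gene. The 34116 rows over no M21 exon held 1.09%, and 4948 shared rows stayed in the fit.

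All rows were tested with edgeR 4.0.16 (R 4.3.3): TMM, filterByExpr by group (minimum count 10, minimum total 15), quasi-likelihood F test, Benjamini-Hochberg adjustment over 10503 rows, threshold 0.05; standard errors and 95% intervals come from the same test. CPM are given as mean ± SD. DESeq2 1.42.0, limma-voom (limma 3.58.1), other scaling, filters, exon minimums, summed rows, a replicate block and leaving out tumours were alternatives. The fit was tested on simulated data. Members and gene lists were chosen with earlier results of these data known. Named genes are the 7 members, up to 4 genes past the threshold per list (or up to 2 as values), marker genes for comparison, and the 3 nearest genes by Pearson r per member; Csf1r had no row.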

Additional observations from a re-analysis of the deposited data

How the results depend on the processing

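The calls of Ikzf2, Ikzf4 and Tnfrsf4 held in all 16, 16 and 15 alternatives that gave a value, with log2 fold changes of 1.5 to 2.02, 2.56 to 3.18 and 2.30 to 3.06 and adjusted p of at most 0.0231, 0.0180 and 0.0374. Tnfrsf4 has no row with at least 200 bp of exon, and Tnfrsf9 none with 100. Capg (0.028 to 0.53) and Havcr2 (-0.49 to -0.0055) passed in none of their 16. Entpd1 turned sign when single tumours were left out (-0.53 to 0.14) and without the 2 tumours with most muscle reads (0.19, an alternative chosen after seeing the data), and the cause was not tested. Tnfrsf9 passed with no filter on low counts (-0.88) and, over single tumours left out, ran from -1.38 to -0.39. Rows past the threshold numbered 4187, and 2690 to 3928 with single tumours left out, the lowest without sgNT replicate 2 (1259 lower; lower rows 1259 to 1908 over single tumours). Without the 2 muscle-rich tumours 1865 rows passed, 1094 higher and 771 lower, and 13 list genes against 23, with fewer samples. The contrast between the regulatory genes and the other 3 moved from 2.27 to 1.77 with at least 200 bp of exon, since fewer members had a row.

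The replicate numbers are shared by both groups, and the labels state no pairing of the tumours. Same-numbered tumours had correlations of deviations of -0.079, -0.021 and 0.050, and tumours with unlike numbers -0.065 to 0.110. With 3 tumours per group these values cannot decide whether tumours were paired. With the replicate block 3645 rows passed, Ikzf4 was at 2.89, and 3 members were called, the same number as without it, while Layn and Socs2 were not (adjusted p = 0.0577 and 0.0879). Counts of 3 to 14 in sgNT tumours limit the precision of Ikzf4 and Tnfrsf4.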
